A study of Homo sapiens with 6 samples.

Results

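The genes described here encode cell junction, adhesion and matrix proteins, and they were followed in 3 human bladder cancer cell lines with or without the histone deacetylase (HDAC) inhibitor quisinostat. Members were taken from the deposited gene table by name. They are the claudins (names starting with CLDN), the ZO proteins (TJP), the desmosomal genes (DSC2, DSC3, DSG, DSP, PKP), the cadherins (CDH), the catenins (CTNN), the integrin chains (ITGA, ITGB), the laminin chains (LAMA, LAMB, LAMC) and the collagens (COL and a number), and also OCLN, EPCAM, JUP, PERP, VIM, FN1, AGRN, ZEB1, ZEB2, SNAI1 and SNAI2. The rule found 73 genes among 10066 assembled loci, and 66 of them hold the role their name gives. The other 7 matched by name only. The table lists no row under VIM, ZEB1, ZEB2, SNAI1 or DSC2.

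RT4 and RT112 cells carry an FGFR3-TACC3 fusion, and SW780 cells carry the fusion that the labels spell FGFR3-BAIBP2L1. RT4 cells received 50 nM quisinostat, RT112 cells 10 nM and SW780 cells 25 nM, each for 2 days, and the controls received DMSO. The dose therefore differs between lines. Each line and treatment has 1 library, 6 in all, which leaves differences within a line without a replicate check. One label of the quisinostat-treated SW780 library names the line SW781, while its title names SW780. RNA came from whole cultures, in which fewer cells of a type and less RNA per cell cannot be told apart. Values are FPKM, fragment counts scaled to transcript length and to all mapped fragments of the library, and the sequencing depth behind them is unknown. Between 213 and 534 loci were listed at 0 in a library.

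Epithelial cells hold to each other through tight junctions, adherens junctions and desmosomes, and they hold to the basement membrane through integrins that bind laminins and collagens. In an epithelial to mesenchymal transition, cells lose E-cadherin (CDH1) and junction proteins and gain N-cadherin (CDH2), vimentin, fibronectin and fibrillar collagens. Transcription factors of the SNAI and ZEB families, which bind the E-box letters CACCTG, are well-known repressors of CDH1 in that transition. HDAC inhibitors block the removal of acetyl groups from histones and other proteins.

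Upstream sequence is shown for members that rose in every line, since such genes might share motif letters near their start sites. RefSeq (GRCh38.p14) gave a window of 250 bases before the start for 48 of the 66 genes. CDH1 and SNAI2 were among those without one. CACCTG or its reverse complement CAGGTG was in the first listed window of 12 of these 48 genes and of 5 of the 14 that rose, against 17.5% of 35116 windows. The 5 were LAMA3, LAMB3, ITGB6, DSP and DSG2. TGANTCA, the letters that AP-1 factors bind, was in 3 of the 48, in 1 of the 14 and in 6.57% of windows. Later windows of the risen LAMB3 and CDH2 also held it and were not counted. The shares of windows count every listed start of a gene, while each member was counted once. GGGCGG or CCGCCC, which Sp1 binds, was in 34, 10 and 42.6%, and TATAAA or TTTATA was in 4, 0 and 10.7%. Both strands were searched, and CACCTG and TGANTCA share 2 letters in the LAMA3 match CACCTGAGTCA. These matches are descriptions and were not tied to binding. Each line below gives 30 bases around a match, read 5′ to 3′ on the strand of the gene, with the match in capitals.

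LAMA3, chr18:23872937-23872966: cagccttcctCACCTGAGTCAggcaggccc
LAMA3, chr18:23872883-23872912: tctggcacaggcTGACTCAtgtgtgaagtt
LAMB3, chr1:209652626-209652655: agcccccacaggCAGGTGggcattgtggag
ITGB6, chr2:160200325-160200354: ttggtgattgtaCACCTGccttccttataa
DSP, chr6:7541481-7541510: gggcggcgggcgCAGGTGgggaggggcggc
DSG2, chr18:31497933-31497962: acgtcacggtccCAGGTGcgagtgcgagcg

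LAMA3, DSP and DSG2 lie on the plus strand, and LAMB3 and ITGB6 on the minus strand. Both LAMA3 stretches are inside the span of the gene, which GENCODE 29 gives as chr18:23689443-23956222 (GRCh38), upstream of an internal start. LAMB3 has 3 RefSeq starts, and TGACTCA was found upstream of the most internal one. The part of that window outside GENCODE 29 exons, 230 bases on the minus strand at chr1:209651395-209651624, is given with the match in capitals.

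LAMB3 internal start: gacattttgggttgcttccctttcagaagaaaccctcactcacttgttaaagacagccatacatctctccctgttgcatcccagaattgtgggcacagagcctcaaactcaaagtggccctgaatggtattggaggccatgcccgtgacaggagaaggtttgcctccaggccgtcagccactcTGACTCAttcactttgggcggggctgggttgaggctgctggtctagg

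Compared to DMSO, quisinostat-treated cells had more RNA of FN1, of some laminin genes (LAMA3, LAMB3, LAMB1 and LAMB2), of some desmosomal genes (DSP, DSG2 and PKP2) and of 4 integrin genes in all 3 lines, and few members were lower in all 3. Within a line, FPKM with quisinostat was divided by FPKM with DMSO and the log2 of this ratio was used as the response of a gene, which was possible for the 62 members above 0 in all 6 libraries. A gene is said to have risen when this ratio was above 0.3 in every line, and to have fallen when it was below -0.3 in every line. By this rule 20 of the 62 members (32.3%) rose, against 11.4% of the 9112 loci with a ratio. Only 2 members, CDH26 among them, fell (3.23% of members), against 4.99% of loci. For RT4, RT112 and SW780 cells in that order, the members had median log2 ratios of 0.53, 0.63 and 0.31, and all loci had 0.08, 0.06 and 0.04. Ratios were above 0 in all 3 lines for 30 members (48.4%, against 22.9% of loci) and below 0 in all 3 for 4 (6.45%, against 16.6%).

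A difference of 2-fold or more, a log2 ratio above 1 or below -1, was seen most often upwards. In RT4 cells 21 members were above 1 (18.0% of loci were) and 8 below -1 (14.1%). In RT112 cells the numbers were 26 above (13.8%) and 2 below (3.60%), and in SW780 cells 16 above (10.5%) and 4 below (7.35%). The ratio was above 1 in all 3 lines for LAMA3, FN1, CDH2, DSP, COL1A1 and COL5A3. The last 2 had less than 1 FPKM in most libraries.

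**Figure D1:**
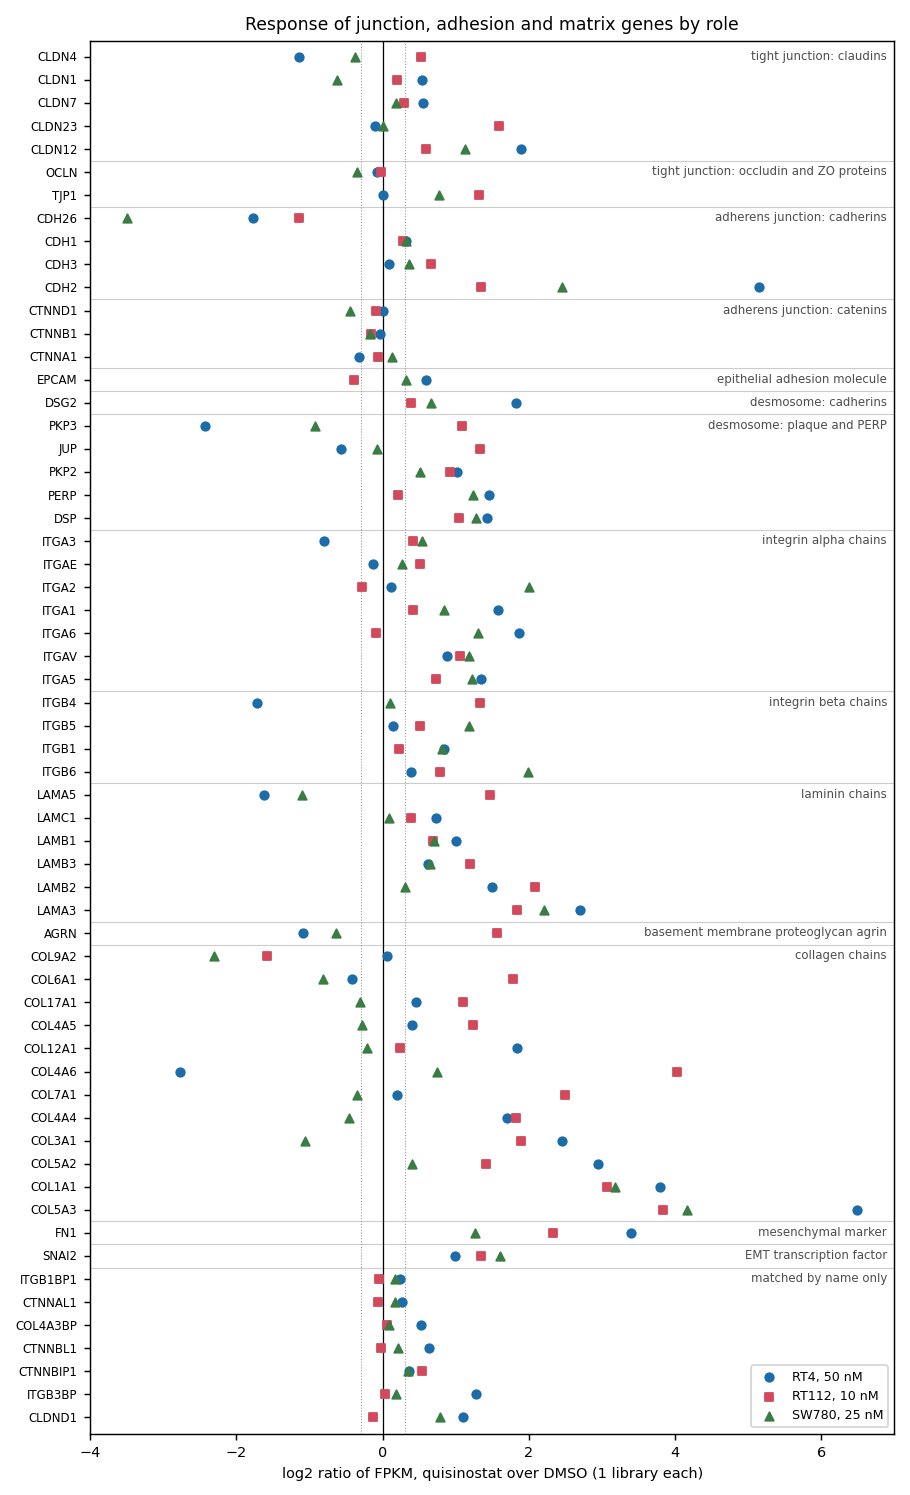
Log2 ratio of FPKM in quisinostat over DMSO for 60 of the 62 members above 0 in all 6 libraries, grouped by role, with 1 point per cell line and dotted lines at -0.3 and 0.3. The laminin chains shown lie to the right of 0 except LAMA5, CDH26 lies to the left in all 3 lines, and the lines diverge in COL4A6, PKP3 and ITGB4.

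Laminins are trimers of an alpha, a beta and a gamma chain that build the basement membrane, and LAMA3, LAMB3, LAMB1 and LAMB2 were among the members that rose. LAMA3 and LAMB3 encode chains of laminin-332, the main anchor of epithelial cells under hemidesmosomes. The FPKM of LAMA3 was 2.41 with DMSO and 15.7 with quisinostat in RT4, 4.07 and 14.5 in RT112, and 11.7 and 54.4 in SW780 cells. Each treated library was thus above every DMSO library, with log2 ratios of 2.71, 1.84 and 2.21. LAMB3 went from 19.2 to 29.5 FPKM, from 15.8 to 36.1 and from 28.8 to 45.1 in the same order of lines. The log2 ratios of LAMB3 were 0.62, 1.19 and 0.65.

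The chains of the broader basement membrane laminins moved less evenly. LAMB1 went from 25.0 to 50.3 FPKM in RT4, from 19.8 to 31.9 in RT112 and from 22.4 to 36.6 in SW780 cells, with log2 ratios between 0.69 and 1.01. LAMB2 also rose, by 1.50, 2.08 and 0.30 on the log2 scale, and its SW780 value of 0.302 lies at the threshold. LAMC1, the common gamma chain, had 34.3 and 56.7 FPKM in RT4, 25.0 and 32.8 in RT112, and 37.1 and 39.5 in SW780 cells, and did not pass the rule because of SW780. LAMA5, the alpha chain of laminin-511 and laminin-521, went the opposite way in different lines. It had 7.58 and 2.47 FPKM in RT4, 3.18 and 8.79 in RT112, and 4.47 and 2.07 in SW780 cells. AGRN encodes agrin, a basement membrane proteoglycan, and had the same order of directions, with 6.27 and 2.95, 5.01 and 14.9, and 9.55 and 6.15 FPKM.

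**Figure D2:**
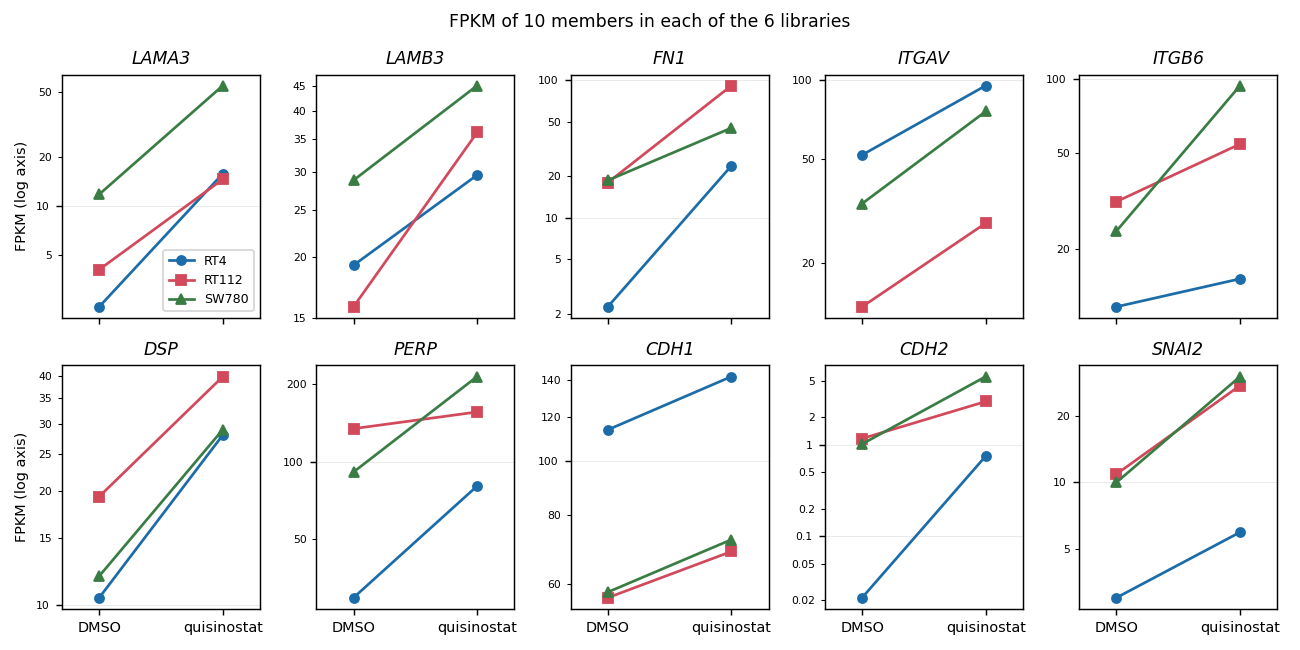
FPKM of 10 members in the DMSO and the quisinostat library of each cell line, on log axes, with a line joining the pair. LAMA3, LAMB3, FN1, ITGAV, ITGB6, DSP, CDH2 and SNAI2 rose in each line, while PERP in RT112 and CDH1 in RT112 cells stayed under a log2 ratio of 0.3.

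By median, the measured mesenchymal genes had higher ratios than the epithelial ones in each line, and FN1, CDH2 and SNAI2 rose. FN1 encodes fibronectin, a matrix protein bound by several integrins. Its FPKM was 2.27 and 23.9 in RT4, 18.1 and 91.2 in RT112, and 18.7 and 45.0 in SW780 cells, so that all treated libraries were above all DMSO libraries (log2 ratios 3.40, 2.34 and 1.26). CDH2, which encodes N-cadherin, had 0.02115 and 0.752 FPKM in RT4, 1.17 and 2.97 in RT112, and 1.02 and 5.58 in SW780 cells. It rose in each line but stayed far below CDH1 in FPKM, and its RT4 ratio of 5.15 rests on a DMSO value near 0. SNAI2 encodes Slug, a repressor of CDH1. Its FPKM was 2.99 and 5.94 in RT4, 10.9 and 27.6 in RT112, and 10.0 and 30.3 in SW780 cells, with log2 ratios of 0.99, 1.34 and 1.60.

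For 16 mesenchymal core genes, 9 were found in the table, 7 had a ratio and 5 rose (FN1, CDH2, SNAI2, COL1A1 and COL5A2), against 11.4% of all loci. The medians of their log2 ratios were 2.95, 1.79 and 1.26 for RT4, RT112 and SW780 cells. For 14 epithelial core genes, 12 had a ratio, DSP and DSG2 rose (against the same 11.4% of loci) and none fell, and the medians were 0.43, 0.34 and 0.25. Summed FPKM of the mesenchymal genes was 12.4 and 75.8 in RT4, 31.6 and 133 in RT112, and 33.6 and 85.8 in SW780 cells. That of the epithelial genes was far higher in every library, with 572 and 734, 518 and 660, and 500.0 and 658 FPKM. Both lists hold members, so they are a description of the same genes and not a separate measure. The mesenchymal medians depend on how low values and values of 0 are treated. On the log2(FPKM + 1) scale, which takes in all 9 genes found, they were 0.78, 1.06 and 0.51. RT112 and not RT4 cells then had the highest. Scale and set of genes changed together here.

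**Figure D3:**
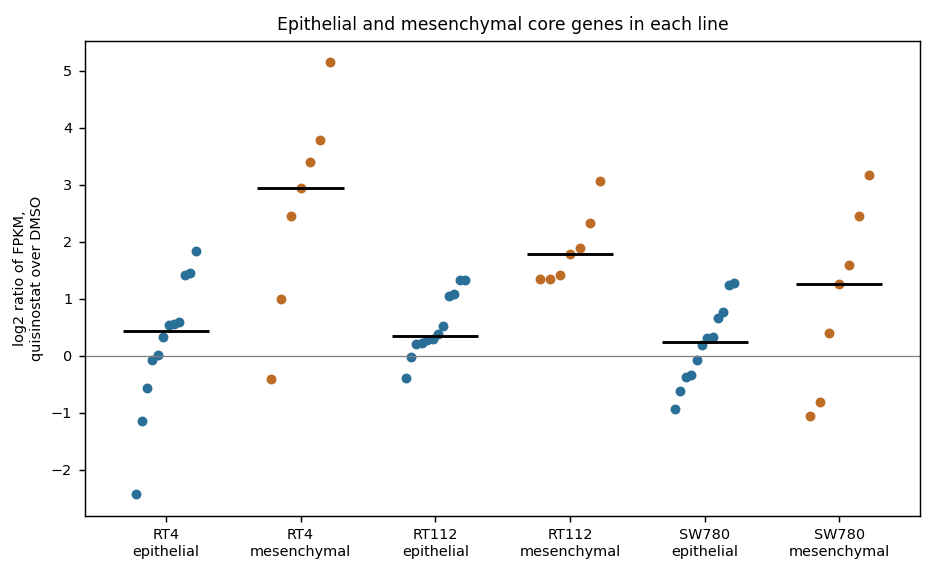
Log2 ratio of FPKM in quisinostat over DMSO for the epithelial core genes (blue, 12) and the mesenchymal core genes (brown, 7) with a ratio, in each cell line, with a bar at the median. The mesenchymal median is the higher one in every line, at 2.95, 1.79 and 1.26 against 0.43, 0.34 and 0.25, and single genes of both lists lie on either side of 0 in RT4 and SW780 cells.

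Among the 4 cadherins and 3 catenins of adherens junctions, CDH2 rose, CDH26 fell and the other 5 did not pass the rule. CDH1 had 114 and 142 FPKM in RT4, 56.7 and 68.7 in RT112, and 58.0 and 72.2 in SW780 cells. Its log2 ratios of 0.32, 0.28 and 0.32 were among the most even of all members, and the RT112 value kept it just under the rule. CDH3, which encodes P-cadherin, had 33.4 and 35.5, 22.2 and 35.0, and 17.4 and 22.2 FPKM. The catenins tie cadherins to actin, and none of the 3 passed the rule. CTNNB1, beta-catenin, had 87.0 and 84.9 FPKM in RT4, 102 and 90.9 in RT112, and 51.8 and 46.1 in SW780 cells. CTNNA1, alpha-catenin, had 111 and 88.4, 106 and 102, and 113 and 124 FPKM. CTNND1, p120-catenin, had 58.9 and 59.1, 71.1 and 67.0, and 92.4 and 68.0 FPKM at a locus that also carries the names TMX2 and SELENOH. CDH26 fell, from 10.2 to 2.97 FPKM in RT4, 0.343 to 0.156 in RT112 and 0.334 to 0.0297 in SW780 cells, so only RT4 cells had it above 1 FPKM. EPCAM, an adhesion molecule of epithelial surfaces, had 62.4 and 94.6, 58.3 and 44.7, and 53.3 and 66.6 FPKM, higher with quisinostat in RT4 and SW780 and lower in RT112 cells.

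Desmosomes, which anchor keratin filaments at cell contacts, held 3 of the 20 risen genes (DSP, DSG2 and PKP2), 3 of the 6 desmosomal members with a ratio, against 11.4% of all loci. DSP encodes desmoplakin, the link to keratin, and had 10.5 and 28.1 FPKM in RT4, 19.3 and 40.0 in RT112, and 11.9 and 28.99 in SW780 cells. Every treated library was above every DMSO library, with log2 ratios of 1.42, 1.05 and 1.28. DSG2, a desmosomal cadherin, went from 17.3 to 61.4, 49.2 to 64.2 and 37.6 to 59.7 FPKM. PKP2, a plaque protein, rose by 1.01, 0.92 and 0.51 on the log2 scale. PERP, a membrane protein of desmosomes, had 29.4 and 80.3 FPKM in RT4, 134 and 156 in RT112, and 91.0 and 215 in SW780 cells, and RT112 kept it from passing. JUP, which encodes plakoglobin, had 138 and 92.9, 30.4 and 76.8, and 56.1 and 53.0 FPKM. PKP3 had 8.85 and 1.64, 4.78 and 10.1, and 4.72 and 2.48 FPKM, so both plaque genes were lower in RT4 and higher in RT112 cells. DSC3 was listed at 0 with DMSO and 0.0102 with quisinostat in RT4, and had 2.96 and 6.87 FPKM in RT112 and 2.70 and 7.27 in SW780 cells. DSG3 was at most 3.32 FPKM, in treated SW780 cells. PKP1 was listed at 0 in both SW780 libraries and had 0.755 and 0.0186 FPKM in RT4 and 8.80 and 29.6 in RT112 cells.

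Tight junctions seal the space between cells through claudins and occludin, which scaffold proteins tie to actin. TJP1, which encodes the scaffold ZO-1, had 6.02 and 6.05 FPKM in RT4, 3.12 and 7.81 in RT112, and 8.98 and 15.3 in SW780 cells. OCLN, which encodes occludin, had 6.73 and 6.39, 2.27 and 2.23, and 6.26 and 4.93 FPKM. TJP3 was listed at 0 with DMSO in RT112 and was higher with quisinostat in each line, at 4.50, 2.47 and 1.13 FPKM. Among claudins, CLDN12 rose, with 2.24 and 8.29, 5.17 and 7.80, and 4.63 and 10.1 FPKM, at a locus that also carries the name CDK14. CLDN1 was the most abundant claudin, with 106 and 153 FPKM in RT4, 121 and 139 in RT112, and 103 and 67.0 in SW780 cells. CLDN7 shares its locus with GABARAP, CTDNEP1 and AC120057.3 and had log2 ratios of 0.56, 0.29 and 0.18. CLDN4 had 40.3 and 18.2, 13.1 and 18.8, and 16.4 and 12.6 FPKM. CLDN23 was higher in RT112 cells only by more than 0.3, and CLDN8 stayed under 1 FPKM in every library.

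Integrin chains are the receptors for these matrix proteins, and 4 of the 11 chains rose (ITGAV, ITGA5, ITGA1 and ITGB6), against 11.4% of all loci. ITGAV had 51.7 and 95.4 FPKM in RT4, 13.6 and 28.4 in RT112, and 33.7 and 76.0 in SW780 cells, with log2 ratios of 0.88, 1.07 and 1.18. Its epithelial partner ITGB6 had 11.6 and 15.1, 31.4 and 54.3, and 23.8 and 94.3 FPKM, so the rise was smallest in RT4 and largest in SW780 cells. ITGA5, the alpha chain of the classical fibronectin receptor, had 0.683 and 1.73, 2.81 and 4.68, and 2.70 and 6.32 FPKM. ITGA1, a collagen receptor chain at a locus shared with PELO, rose by 1.58, 0.41 and 0.84 on the log2 scale.

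The chains of the hemidesmosomal laminin receptor did not move together. ITGA6 had 20.9 and 76.0 FPKM in RT4, 73.6 and 69.3 in RT112, and 57.8 and 143 in SW780 cells. Its partner ITGB4 had 52.0 and 15.8, 28.7 and 72.1, and 20.9 and 22.3 FPKM, so that alpha and beta chain went opposite ways in RT4 cells. ITGA3, a laminin-332 receptor chain that pairs with ITGB1, had 102 and 58.5, 56.5 and 75.1, and 43.7 and 63.4 FPKM. ITGB1 had 45.0 and 80.8 FPKM in RT4, 132 and 154 in RT112, and 122 and 214 in SW780 cells, with a log2 ratio of 0.23 in RT112 that kept it under the rule. ITGA2, a collagen receptor chain, was close to its control in RT4 and RT112 and went from 30.1 to 120.2 FPKM in SW780 cells. ITGB5 had log2 ratios of 0.15, 0.51 and 1.18, and ITGAE of -0.13, 0.50 and 0.26.

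Among collagens, 12 of the 18 genes had a ratio and 3 rose (COL1A1, COL5A2 and COL5A3), against 11.4% of all loci, while none fell. COL5A2, a chain of fibrillar collagen V, had 4.87 and 37.7 FPKM in RT4, 0.513 and 1.37 in RT112, and 0.485 and 0.641 in SW780 cells. COL1A1 was at most 1.45 FPKM and COL5A3 at most 2.22, so their large ratios rest on small values. COL3A1 had 1.13 and 6.19, 0.0896 and 0.334, and 2.74 and 1.31 FPKM, higher in RT4 and RT112 and lower in SW780 cells. COL12A1, a fibril-associated collagen, had 7.71 and 27.5 FPKM in RT4, 35.6 and 42.0 in RT112, and 19.5 and 16.9 in SW780 cells.

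Collagen IV forms the sheet of the basement membrane, and its 6 genes lie as head-to-head pairs. COL4A1 and COL4A2 were at or near 0 in both RT4 libraries. COL4A1 had 18.9 and 28.9 FPKM in RT112 and 3.91 and 19.0 in SW780 cells, and COL4A2 had 9.01 and 21.0, and 1.83 and 6.84 FPKM, so both members of this pair were higher with quisinostat in the lines that had them. RefSeq places their starts 126 bases apart on chromosome 13. The pair on the X chromosome, with starts 379 bases apart, did not move together. COL4A5 had 8.65 and 11.5, 10.6 and 25.2, and 13.3 and 10.9 FPKM, and COL4A6 had 2.04 and 0.299, 0.00919 and 0.150, and 6.96 and 11.7 FPKM. COL4A3 and COL4A4, 418 bases apart on chromosome 2, were highest in treated RT112 cells, at 2.10 and 6.11 FPKM. COL17A1, the collagen of hemidesmosomes, had log2 ratios of 0.46, 1.10 and -0.31. COL7A1, the anchoring fibril collagen, had 0.0578 and 0.0665, 0.0320 and 0.180, and 4.41 and 3.47 FPKM. Of the others, COL5A1 and COL6A2 were listed at 0 in an RT4 library and reached 4.66 and 2.22 FPKM in treated RT112 cells, COL9A2 and COL6A1 stayed at or under 1.51 FPKM, and COL18A1 at or under 0.488.

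A difference between lines in direction was common among all loci, and its share among the members was lower or about the same. Above 0.3 in a line and below -0.3 in another were 15 members (24.2%, against 29.3% of loci), and 9 of them were below -0.3 in RT4 and above 0.3 in RT112 cells (14.5%, against 14.4% of loci). These 9 were AGRN, COL4A6, COL6A1, JUP, PKP3, ITGA3, ITGB4, LAMA5 and CLDN4. GC content was taken from the longest coding transcript in GENCODE 29, as the mean over gene names at a shared locus. It moved with the pattern of these 9, since 7 of the 9 were among the 13 members of at least 60% GC. Their medians were -0.42 for RT4, 1.57 for RT112 and -0.08 for SW780 cells on the log2 scale, and the 49 members under 60% had 0.62, 0.50 and 0.35. Across the 62 members, as a description over genes of the same libraries, Spearman's rho of log2 ratio and GC content was -0.33, 0.49 and -0.31, against -0.49, 0.44 and -0.22 over 8407 loci.

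The ratios were also computed after a smooth curve of ratio on GC content over all loci was subtracted in each line. The 13 GC-rich members then had medians of 0.73, 0.64 and 0.19. LAMA5 changed from -1.62, 1.47 and -1.11 to -0.20, 0.38 and -0.68, JUP from -0.57, 1.33 and -0.08 to 0.36, 0.64 and 0.19, and PKP3 from -2.43, 1.09 and -0.93 to -0.98, -0.02 and -0.49. Among the 6 largest opposite responses, LAMA5 and 3 others were still beyond 0.3 in opposite directions. The others were COL4A6 (54.6% GC) at -2.51, 3.83 and 0.79 and COL3A1 at 2.53, 1.83 and -1.06. The last was the GC-rich ITGB4 (63.7% GC) at -0.57, 0.46 and 0.44. Outside these 6, other members were too, such as EPCAM at 0.38, -0.33 and 0.24 and CLDN1 at 0.11, 0.37 and -0.74. COL4A4, at 1.61, 1.83 and -0.51, and COL6A1, at 0.73, 0.93 and -0.47, were further examples. Of the 20 members that rose, 17 were kept and CTNNBIP1, ITGA5 and ITGB6 were lost, while CDH3, ITGB1, ITGB5 and PERP came in, and both falls were kept. LAMA3 stayed at 2.69, 1.81 and 2.18 and FN1 at 3.35, 2.33 and 1.23. Whether GC content shaped the direction in a line was not tested.

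**Figure D4:**
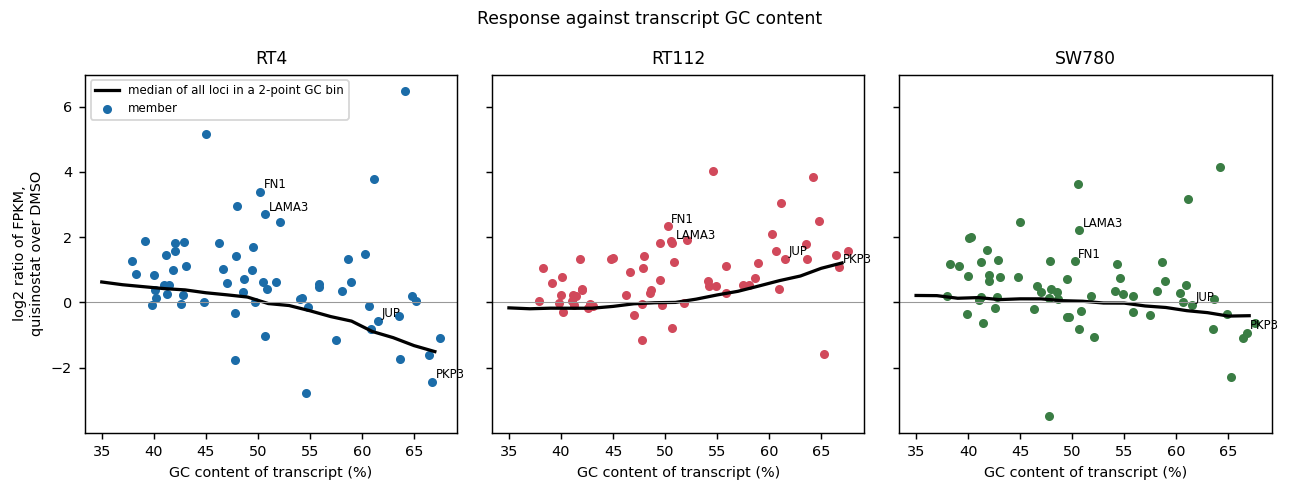
Log2 ratio of FPKM in quisinostat over DMSO against GC content of the longest coding transcript for the 62 members (points) in each cell line. At a locus with several gene names, GC content is the mean over the names. The black line is the median of all loci in bins of GC content. GC-rich loci lie low in RT4 and high in RT112 cells, PKP3 and JUP lie on the same side of 0 as that line in RT4 and RT112 cells, and FN1 and LAMA3 lie above it in every panel.

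Across the 3 lines, limma on log2(FPKM + 1) with cell line as a block called none of the 64 members with a mean FPKM of at least 1 at an adjusted p under 0.05 (Benjamini-Hochberg over 9430 loci), and it called no locus at all (0.00%). At an unadjusted p under 0.05, 19 members were higher (29.7%, against 9.68% of loci) and 1 was lower (1.56%, against 4.16%). LAMA3 had the smallest p of the members, with a log2 fold change of 2.01 ± 0.22 (SE), higher in 3 of 3 lines, and a limma adjusted p of 0.176. FN1 had 2.14 ± 0.34 and DSP 1.19 ± 0.18, each with a limma adjusted p of 0.226. CDH1 had 0.30 ± 0.16 with a limma adjusted p of 0.435. An exact permutation test over 3 pairs of libraries cannot give a two-sided p under 0.25.

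Related genes outside the membership rule were counted on the same basis of 0.3 in all 3 lines. Of 13 epithelial transcription and splicing regulators with a ratio, KLF4 rose and KLF5 fell, against 11.4% and 4.99% of all loci. The median log2 ratios of this list were -0.37, -0.03 and -0.34 for RT4, RT112 and SW780 cells. KLF4 had 0.755 and 2.99 FPKM in RT4, 0.143 and 1.82 in RT112, and 1.77 and 7.03 in SW780 cells. GRHL3, a factor of differentiating epithelium, had 26.4 and 9.96, 1.35 and 1.20, and 12.0 and 2.96 FPKM. Of 7 other regulators and effectors of the mesenchymal transition, TGFB1, TGFBR1, TGFBR2 and TNC rose and S100A4 fell, against the same shares of loci. TGFB1, the ligand that often starts this transition, had 4.40 and 9.21 FPKM in RT4, 6.19 and 14.8 in RT112, and 8.16 and 25.7 in SW780 cells. TNC, the matrix protein tenascin-C, had 0.00338 and 0.241, 0.0563 and 2.70, and 0.107 and 5.54 FPKM, so it was near 0 in every DMSO library.

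In the other junction lists few genes passed the rule, which asks for the same direction in all 3 lines. Their median log2 ratios differed in sign between RT4, RT112 and SW780 cells. They were -0.33, 0.72 and -0.05 for tight junction and polarity genes and -0.92, 0.93 and -0.39 for desmosome and hemidesmosome genes. For adherens junction genes they were 0.19, 0.34 and -0.11. With the GC correction the medians were -0.06, 0.27 and 0.01 for tight junction and polarity genes. They were then 0.02, 0.25 and -0.26 for desmosome and hemidesmosome genes and 0.05, 0.20 and -0.15 for adherens junction genes. Of 19 other tight junction and polarity genes none rose and 1 fell, of 6 other desmosome and hemidesmosome genes none rose or fell, and of 10 other adherens junction genes 3 rose and 1 fell. NECTIN1 and NECTIN3, adhesion molecules of adherens junctions, went opposite ways, with log2 ratios of -0.99, -0.33 and -0.86 for NECTIN1 and 1.90, 0.66 and 0.89 for NECTIN3. Of 14 integrin adhesion complex genes 2 rose and none fell, with FERMT2 (kindlin-2) at 0.88, 1.42 and 1.10. Of 14 other basement membrane and matrix genes 4 rose and 1 fell, with LTBP1, which stores latent TGF-beta in the matrix, at 2.40, 2.01 and 1.70. Of 12 collagen processing genes 2 rose and none fell, among the risen P3H1 at 2.29, 1.59 and 0.43. Of 19 proteases and inhibitors of matrix and junctions 4 rose and 1 fell, with TIMP2, a metalloproteinase inhibitor, at 3.92, 1.49 and 1.56, and MMP13, a collagenase, at 5.97, 0.32 and 1.41. In all of these lists the background share of loci that rose is the 11.4% given above, and the share that fell is 4.99%.

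Bladder epithelial markers were present in all 3 lines, and none of 6 endothelial and none of 6 leukocyte markers had a row under its name. Of 12 bladder epithelial markers all were found, with a summed FPKM of 1602 and 758 in RT4, 1018 and 1532 in RT112, and 1575 and 873 in SW780 cells. UPK3A was listed at 0 in both RT112 libraries. Of 11 with a ratio none rose or fell by the rule, against 11.4% and 4.99% of all loci. The medians were -1.25, 0.82 and -0.83, and with the GC correction -0.66, 0.46 and -0.71. UPK1A, a uroplakin of the bladder surface, had 12.8 and 0.178 FPKM in RT4, 1.27 and 5.89 in RT112, and 19.2 and 0.613 in SW780 cells. Of 9 fibroblast markers 4 were found, with sums of 1.16 and 10.2, 135 and 135, and 10.97 and 18.5 FPKM. Nearly all of the RT112 sum was LUM, at 135 FPKM with DMSO and 133 with quisinostat, and THY1 was listed at 0 in both RT4 libraries and in the DMSO libraries of the other lines. Their part in the values of the matrix genes was not tested.

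The 7 genes that matched by name only were given no junction or matrix role here. They are CTNNBIP1, ITGB3BP, ITGB1BP1, CTNNBL1, CLDND1, COL4A3BP and CTNNAL1. CTNNBIP1, an inhibitor of beta-catenin at a locus shared with CLSTN1, rose, with 7.04 and 9.05, 13.0 and 18.8, and 17.0 and 21.7 FPKM. CTNNBL1, a splicing-associated protein, had 19.8 and 30.8, 28.7 and 28.3, and 42.9 and 49.6 FPKM. CLDND1, at a locus shared with CPOX, had 8.48 and 18.2, 24.2 and 22.1, and 10.96 and 18.8 FPKM. Without these 7 genes, 19 of 55 members rose and 2 fell, against 11.4% and 5.00% of 9105 loci.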

How the data were processed

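RNA-seq of 6 libraries was analysed, 1 for each of 3 cell lines and 2 treatments. The authors prepared stranded polyadenylated RNA libraries, sequenced them on an Illumina NovaSeq and ran HISAT2, StringTie and Ballgown (the submitters' processing notes name Trimmomatic 0.36, HISAT2 2.2.1, SAMtools 1.15.1, StringTie 2.2.1 and GRCh38; the annotation release is not given in the sources used here). The deposited values are FPKM, which the authors already divided by transcript length and mapped fragments, with no counts, so depth and counting intervals are unknown. FPKM is relative to each library and shows no change in total RNA.

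A locus with several gene names has 1 value for all of them, which was used once. Plain log2 ratios were computed for loci above 0 in all 6 libraries, and the threshold of 0.3 is the size the study used for falls. limma 3.58.1 (R 4.3.3) was run on log2(FPKM + 1), mean FPKM of at least 1, with a mean-variance trend and the cell line as a block, because both libraries of a pair come from the same line. This scale understates changes of low genes. Its p-values measure only the spread between 3 lines at 3 doses. The GC correction was a lowess curve (span 0.3, statsmodels 0.14.6). Both steps were run on simulated data with planted shifts. Those for limma were the same in every line, so lines that respond differently were not simulated. Alternatives were pseudocounts, filters, centring, rescaling, single-name loci, thresholds of 0.5 and 1, the GC correction, and leaving out a line.

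Members, gene lists and tests were chosen with earlier results of these data known. Genes named with all values were those the rule names singly, CDH1 to CDH3, the catenins, TJP1 and DSP, the 8 largest rises and falls by the weakest ratio, the 6 largest opposite responses and the 2 most abundant of each role (mean FPKM of at least 1 for rises, falls and opposite responses). From each related list, the 2 genes with the largest mean absolute ratio could be named. Other genes were named after their values were seen, to account for every member and for small counts. Results of 2 members are not reported here by name, although the counts and medians include them.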

Additional observations from a re-analysis of the deposited data

Results flagged for a closer look

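The 6 members with the largest difference between lines in opposite directions, among those with a mean FPKM of at least 1, are given by the span from the lowest to the highest log2 ratio. The span was 6.79 for COL4A6, 3.52 for COL3A1, 3.52 for PKP3, 3.08 for LAMA5, 3.05 for ITGB4 and 2.84 for COL7A1. Each rests on 1 pair of libraries a line, and the difference between lines was not tested. PKP3, LAMA5, ITGB4 and COL7A1 have transcripts of at least 60% GC. COL4A6, COL3A1 and COL7A1 were under 0.1 FPKM in at least 1 library.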

How the results depend on the processing

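Of the members, 20 rose in all 3 lines, and between 14 and 21 did under other pseudocounts, filters, centring, rescaling, the GC correction, single-name loci and a threshold of 0.5, but 6 at a threshold of 1. The shares of loci that rose were 7.42% to 11.8%, and 2.996% at a threshold of 1. Over the pairs of lines left when a line is left out, 25 to 26 rose (15.9% to 22.98% of loci) and 2 to 7 fell (8.18% to 17.9% of loci, 7 and 17.9% without RT112). The 2 falls became 1 with a pseudocount of 1 FPKM, with a filter at a mean FPKM of 5 and at a threshold of 1 (3.67%, 4.88% and 0.285% of loci). The former 2 settings lost CDH26. With the GC correction, the median log2 ratio of the members in RT112 was 0.41 and that of the epithelial core genes in RT4 was 0.27. With a pseudocount of 1 FPKM, low values shrink and all 9 mesenchymal genes found are taken in. The mesenchymal medians of RT4, RT112 and SW780 cells then became 0.78, 1.06 and 0.51.

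With limma, no member was called at an adjusted p under 0.05 under any of 9 alternatives, and the smallest adjusted p of a member ranged from 0.0639 (GC correction with the replicate block, LAMA3) to 0.973 (no replicate block). At an unadjusted p under 0.05, 8 members were higher with no replicate block, 11 to 19 when a line was left out (11 without SW780), and 1 to 5 were lower (5 without RT112). The cause of these shifts was not tested, beyond the fewer lines in the fits that leave one out. Mean log2 ratios over the lines changed sign for members that had not passed the rule, to 0.22 (AGRN), 0.11 (ITGB4) and -0.09 (CLDN1) with the GC correction, to -0.02 (CLDN1) and -0.01 (ITGA3) with centring, and to -0.12 (COL4A6) and -0.02 (COL7A1) with a pseudocount of 1 FPKM. With 1 library per line and treatment and no counts, differences within a line have no error, and values near 0 FPKM give ratios of unknown precision.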
